A study of Mus musculus with 6 samples.

Results

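The genes examined here carry T cell costimulation and checkpoint signals. They were measured in stimulated mouse macrophages labelled as targeted for S-adenosylhomocysteine hydrolase (SAHH) and in controls. The genes number 10 and were chosen by gene name in the deposited table, which held all of them among 54532 genes. Cd80, Cd86 and Icosl encode ligands of the costimulatory receptors CD28 and ICOS, and CD80 and CD86 also bind the inhibitory receptor CTLA-4. Cd274 and Pdcd1lg2 encode PD-L1 and PD-L2, the ligands of the inhibitory receptor PD-1, and Cd276 encodes the related molecule B7-H3. Nectin2 and Pvr encode ligands shared by the activating receptor CD226 and the inhibitory receptor TIGIT. Havcr2 encodes the inhibitory receptor TIM-3, which myeloid cells carry as well as T cells, and Lgals9 encodes galectin-9, one of its ligands.

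The 3 SAHH-KO libraries carry that name in one label and are called a knockdown of SAHH in another, and the 3 control libraries are called shControl in one label and WT in another. SAHH is the enzyme encoded by Ahcy, which breaks down S-adenosylhomocysteine, an inhibitor of methyltransferases. Both groups were labelled as primary peritoneal macrophages obtained 4 days after thioglycollate and left to adhere for 6 h. Both were then stimulated for 8 h with 2 ng/mL of interferon-γ plus 10 ng/mL of lipopolysaccharide before bulk RNA-seq. Unstimulated cells were not analysed here, and strain, age and the method of targeting beyond these names are not given in the sources used here. The labels do not say whether replicates of a group were separate animals or cultures. Each p-value below therefore reflects only how far these libraries scatter, and that scatter may be technical.

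A macrophage shows peptide on MHC molecules to a T cell, and the surface ligands studied here help to set how the T cell answers. CD28 and ICOS engagement adds to activation, whereas PD-1, CTLA-4, TIGIT and TIM-3 restrain it. In macrophages many of these ligands are inducible: interferon-γ raises PD-L1 and galectin-9, and microbial products raise CD80 and CD86.

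Values are FPKM, a level corrected for gene length and library size. The SAHH-KO libraries held 15856261 to 17748745 reads assigned to genes and the control libraries 15540442 to 16676534. Ahcy read 5.51, 5.50 and 6.23 FPKM in SAHH-KO, against 25.8, 22.6 and 24.4 FPKM in control, so the targeted transcript was lower in each SAHH-KO library. It shares 66.0% of its 50-base words with the copy Gm4737, and counting can split reads between them. Macrophage markers such as Lyz2, Cd14, Cd68 and Csf1r were abundant, with a summed level over the 10 listed of 9414 to 10671 FPKM in SAHH-KO and 8437 to 8749 FPKM in control, mostly Lyz2 and Cd14. The library sizes behind the FPKM averaged 0.950 times the assigned reads in SAHH-KO and 1.06 times in control. Compared with scaling to assigned reads, this raises SAHH-KO values relative to control. Of the 9 tested, 4 were called higher and 5 did not pass, while TPM or assigned-read scaling gave 3 higher and 2 lower. Fcgr1, Adgre1 and Itgam, named after their values were seen, were 4.79-fold, 2.09-fold and 1.43-fold higher in SAHH-KO (limma adjusted p of at most 0.00152). Csf1r and Msr1, likewise chosen, were 1.17-fold and 1.16-fold lower in SAHH-KO and did not pass (limma adjusted p = 0.0568 and 0.119). The part of these differences in those of the ligands was not tested. Mertk had 2 reads in all 6 libraries together, and Gata6 and Timd4, markers of resident peritoneal macrophages, had 0; the resident list summed to 0.659 to 1.32 FPKM in SAHH-KO and 1.39 to 1.91 FPKM in control. Of 12 T cell markers 11 had at most 10 reads over all libraries, and Lck made up nearly all of the sum, 3.10 to 4.85 FPKM in SAHH-KO and 2.32 to 2.59 FPKM in control. In bulk RNA a change in the number of cells of a type and a change in RNA per cell cannot be told apart.

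Of the 10 genes, Nectin2, Icosl, Lgals9 and Cd274 rose most clearly in SAHH-KO, and Cd86 and Havcr2 fell. Cd80 and Pvr rose slightly, with calls that were lost under some settings. Nectin2 was 19.6-fold higher, Icosl 3.85-fold, Lgals9 2.50-fold and Cd274 1.71-fold, as ratios of group means in FPKM. Cd86 was 7.86-fold lower and Havcr2 2.65-fold lower. Cd276 did not pass the test, and Pdcd1lg2 was too low to be tested. The test was limma on log2(FPKM + 1) over the 10362 genes with at least 1 FPKM in at least 3 of the 6 libraries, and a gene was called when its p, adjusted by Benjamini-Hochberg, was under 0.05. Of the 9 genes that passed this filter 6 were called higher and 2 lower, where 26.4% of all tested genes were called higher, 26.8% lower and 53.3% in either direction. In genes, that is 2736 higher and 2782 lower, and 2006 higher and 3894 lower with TPM scaling, under which the 9 genes gave 4 higher and 2 lower. Cd86 and Havcr2 passed the filter only through the control libraries, in which they were higher. No overlap between the groups was seen for 8 of the 9, beside 62.3% of all tested genes.

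**Figure D1:**
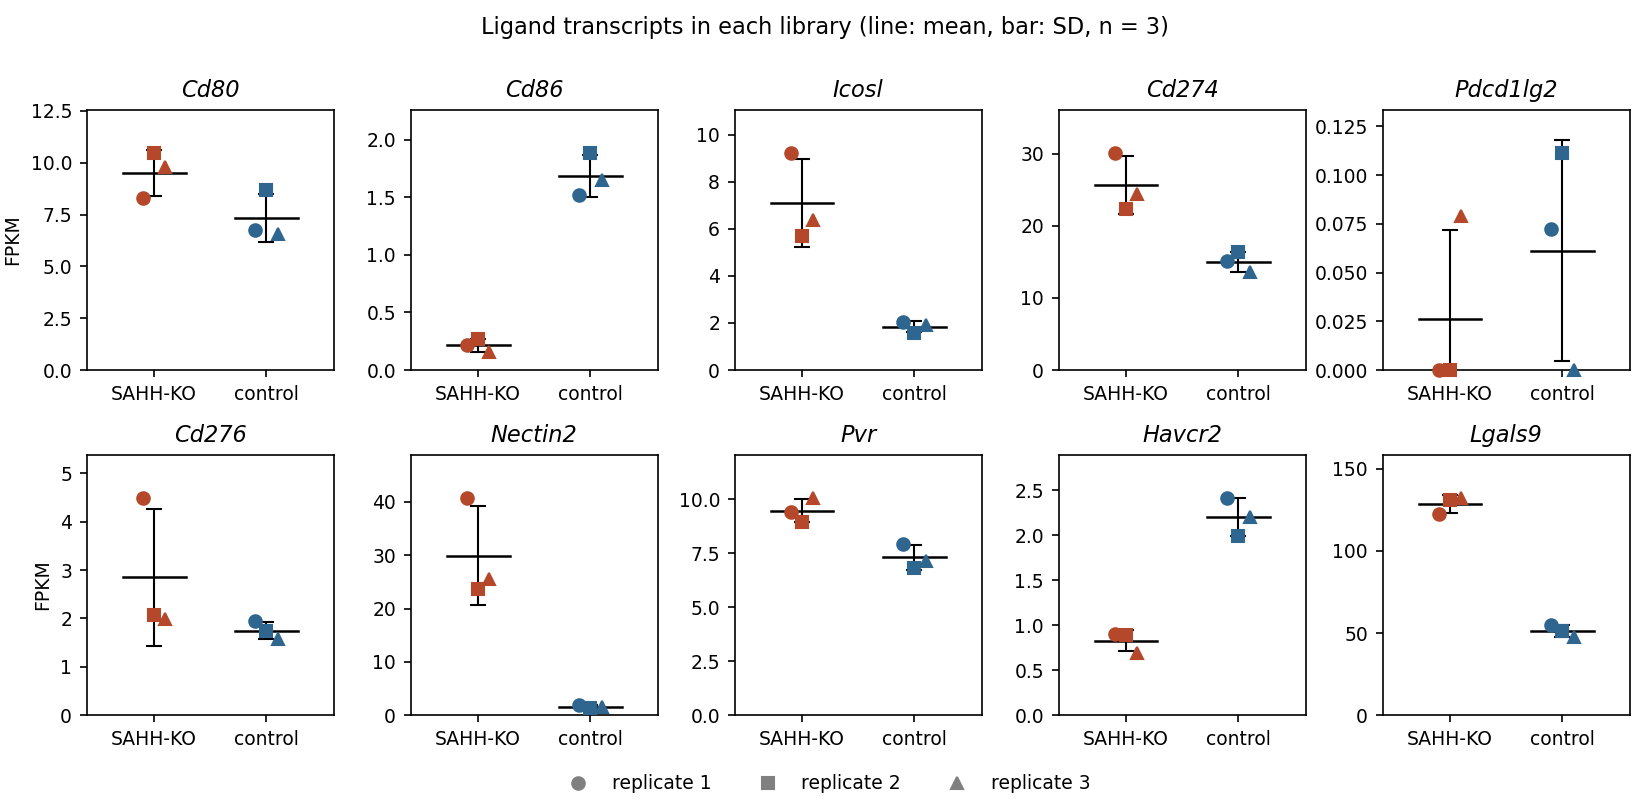
FPKM of the 10 genes in the 3 SAHH-KO libraries (left in each panel) and the 3 control libraries (right), with each library as a point, the group mean as a line and the SD as a bar. Each panel has its own axis from 0. Nectin2 lies between 23.6 and 40.7 FPKM in SAHH-KO and between 1.27 and 1.85 FPKM in control, while Cd86 lies at or under 0.269 FPKM in SAHH-KO and at or above 1.52 FPKM in control.

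Of the ligands of CD28 and CTLA-4, Cd86 fell clearly, while the slight rise of Cd80 was called only under some settings. Cd80 (ENSMUSG00000075122, chromosome 16, bases 38455561 to 38496335, plus strand, GRCm38) read 8.31, 10.5 and 9.77 FPKM in SAHH-KO, against 6.76, 8.67 and 6.57 FPKM in control. The lowest SAHH-KO library lay below the highest control library, so the groups overlapped. The difference of 0.34 on the log2 scale (SE 0.12, limma adjusted p = 0.0457) was just past the threshold. The call was lost in 7 of 15 alternatives, among them TPM scaling (0.21, adjusted p = 0.220), the omission of the filter (adjusted p = 0.122) and the omission of SAHH-KO replicate 2 or 3 or control replicate 1 or 3 (limma adjusted p from 0.101 to 0.154).

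Cd86 (ENSMUSG00000022901, chromosome 16, bases 36603869 to 36666081, minus strand) read 0.213, 0.269 and 0.160 FPKM in SAHH-KO, against 1.52, 1.88 and 1.65 FPKM in control. These values rest on 13, 15 and 9 reads in SAHH-KO and 93, 113 and 108 reads in control, so the transcript was low in both groups and the groups lay far apart. On the scale of log2(FPKM + 1) the fold change was -1.14 (SE 0.11, limma adjusted p = 5.80e-05). This scale compresses low values, and limma-voom on the recovered reads gave -2.95 (limma adjusted p = 4.20e-06).

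Within a library the ratio of Cd86 to Cd80 does not depend on library scaling. Per length and with 1 read added to each gene, it was 0.0276, 0.0274 and 0.0181 in SAHH-KO and 0.226, 0.219 and 0.253 in control. Every SAHH-KO library lay below every control library. The mean log2 ratio differed by -3.28, which is 9.71-fold lower in SAHH-KO. An exact permutation test of the log2 ratio gave a two-sided p of 0.1, the smallest that 3 against 3 libraries allow.

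Icosl (ENSMUSG00000000732, chromosome 10, bases 78069302 to 78083913, plus strand), the ligand of ICOS, read 9.21, 5.70 and 6.37 FPKM in SAHH-KO, against 2.03, 1.58 and 1.91 FPKM in control. All SAHH-KO libraries lay above all control libraries, with replicate 1 the highest. On the log2 scale Icosl rose by 1.49 (SE 0.16, limma adjusted p = 0.000111), and the change was 1.31 without SAHH-KO replicate 1. Icosl stood at 1.11, 0.545 and 0.652 times the level of Cd80 in SAHH-KO, against 0.300, 0.183 and 0.291 times in control.

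The ligands of PD-1 are neighbouring genes that differed greatly in level. Cd274 (ENSMUSG00000016496, chromosome 19, bases 29367455 to 29388095, plus strand) read 30.1, 22.3 and 24.4 FPKM in SAHH-KO, against 15.1, 16.3 and 13.6 FPKM in control. The groups did not overlap, and the mean was 25.6 ± 4.01 FPKM in SAHH-KO and 15.0 ± 1.37 FPKM in control (SD, n = 3 each, as for every mean ± SD below). The log2 fold change was 0.73 (95% interval 0.45 to 1.00, limma adjusted p = 0.00127), which placed Cd274 at rank 1130 among the tested genes by size of rise. Pdcd1lg2 (ENSMUSG00000016498), which starts 22823 bases beyond the end of Cd274, had 0, 0 and 2 reads in SAHH-KO and 2, 3 and 0 reads in control. No library was above the floor of 3 reads, worth 0.102 to 0.120 FPKM for this gene, and no difference was detectable at this depth.

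The ratio of Cd274 to Cd80 was 3.62, 2.13 and 2.50 in SAHH-KO and 2.24, 1.88 and 2.07 in control. The groups overlapped, since SAHH-KO replicate 2 lay below control replicate 1. The log2 difference of 0.38 had a two-sided p of 0.2 in an exact permutation test over the 6 libraries, a design in which p cannot go below 0.1.

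**Figure D2:**
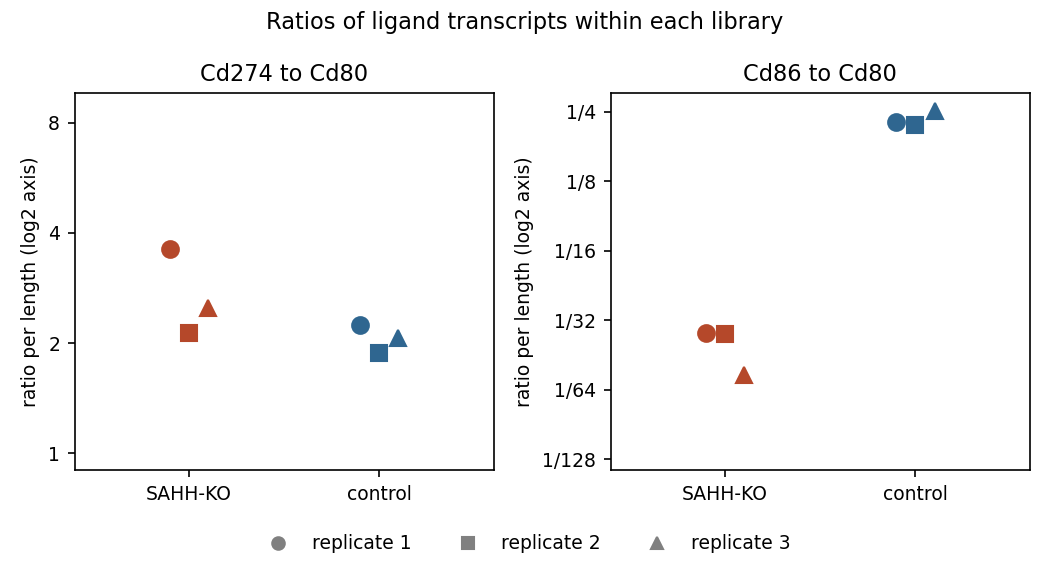
Ratio of Cd274 to Cd80 (left) and of Cd86 to Cd80 (right) in each library, per length, on log2 axes that differ between the panels; points are SAHH-KO and control libraries. The Cd274 ratios overlap between the groups, while the Cd86 ratios lie at or below 0.0276 in SAHH-KO and at or above 0.219 in control.

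Cd276 (ENSMUSG00000035914, chromosome 9, bases 58524298 to 58555437, minus strand) read 4.49, 2.07 and 1.99 FPKM in SAHH-KO, against 1.94, 1.73 and 1.57 FPKM in control. The groups did not overlap, but SAHH-KO replicate 1 stood 2.21-fold above the mean of the other SAHH-KO libraries. The log2 fold change was 0.43 (95% interval -0.08 to 0.93, limma adjusted p = 0.134), and without SAHH-KO replicate 1 it was 0.14 (limma adjusted p = 0.338).

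Nectin2 showed the largest difference of the 10 genes. It (ENSMUSG00000062300, chromosome 7, bases 19716644 to 19750483, minus strand) read 40.7, 23.6 and 25.5 FPKM in SAHH-KO, against 1.85, 1.27 and 1.47 FPKM in control, which is 4992 reads in the SAHH-KO libraries together and 273 in the control libraries. The lowest SAHH-KO value was far above the highest control value. Its log2 fold change of 3.58 (SE 0.19, limma adjusted p = 3.33e-06) was the 12th largest rise among the 10362 genes. SAHH-KO replicate 1 was again the highest library, and the ratio of means without it was 16.0. Of the neighbouring coding genes, chosen once the values were known, Tomm40, which lies 1205 bases away, averaged 23.4 ± 1.17 FPKM in SAHH-KO and 32.6 ± 4.04 FPKM in control and was called lower (limma adjusted p = 0.00573). Bcam was not tested and stood at 0.0329 FPKM in SAHH-KO and 0.0242 FPKM in control.

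Pvr (ENSMUSG00000040511, chromosome 7, bases 19903578 to 19921160, minus strand), on the same chromosome, read 9.41, 8.97 and 10.1 FPKM in SAHH-KO, against 7.95, 6.84 and 7.15 FPKM in control. The groups did not overlap but lay close together. Pvr was higher by 0.33 on the log2 scale (SE 0.09, limma adjusted p = 0.0122). With TPM scaling, which shifts the median of all tested genes by -0.15 on the log2 scale, it was 0.20 (limma adjusted p = 0.110), with scaling to assigned reads 0.19 (adjusted p = 0.0955), and the call was also lost without SAHH-KO replicate 3 or control replicate 3 (limma adjusted p = 0.0641 and 0.0503). Nectin2 stood at 4.33, 2.63 and 2.54 times the level of Pvr in SAHH-KO, against 0.232, 0.186 and 0.206 times in control, so the order of these genes was opposite in the groups.

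Galectin-9 and TIM-3 transcripts moved apart. Lgals9 (ENSMUSG00000001123, chromosome 11, bases 78962974 to 78984946, minus strand) read 122, 131 and 132 FPKM in SAHH-KO, against 55.0, 51.1 and 47.8 FPKM in control. It had the narrowest spread in SAHH-KO of the 10 genes, with a coefficient of variation of 4.24%, and it rose by 1.31 on the log2 scale (SE 0.08, limma adjusted p = 6.16e-06). It was the most abundant of the 10 genes and held 54.2% to 63.8% of their summed FPKM in SAHH-KO and 55.8% to 58.1% in control. Nos2, chosen after its values were seen, the inducible nitric oxide synthase gene that lies 2719 bases from it, averaged 174 ± 17.2 FPKM in SAHH-KO and 79.4 ± 9.18 FPKM in control (limma adjusted p = 6.77e-05).

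Havcr2 (ENSMUSG00000020399, chromosome 11, bases 46454935 to 46481255, plus strand) read 0.906, 0.893 and 0.693 FPKM in SAHH-KO, against 2.41, 2.00 and 2.20 FPKM in control, from 107 reads in SAHH-KO and 306 in control. The groups did not overlap, and Havcr2 fell by 0.81 on the log2 scale (SE 0.10, limma adjusted p = 0.000332). With voom on the recovered reads it was -1.40 (limma adjusted p = 0.000145).

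**Figure D3:**
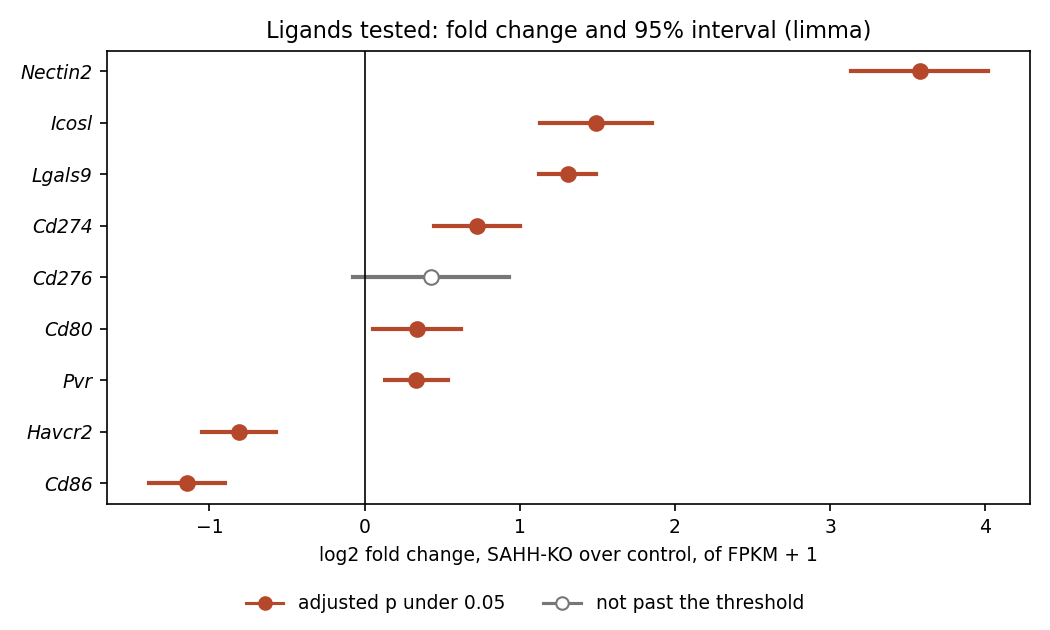
Log2 fold change, SAHH-KO over control, of FPKM + 1 for the 9 genes that were tested, with 95% intervals from limma. Filled points passed adjusted p under 0.05. Nectin2 stands at 3.58, Cd86 at -1.14, and the interval of Cd276 runs from -0.08 to 0.93.

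The order of the 10 genes by level changed mainly through Nectin2. In SAHH-KO it ran Lgals9, Nectin2, Cd274, Cd80, Pvr, Icosl, Cd276, Havcr2, Cd86 and Pdcd1lg2. The libraries of Nectin2 and Cd274 overlapped there, as did those of Cd80 and Pvr and of Pvr and Icosl, so these neighbours were not separated by their spread. In control it ran Lgals9, Cd274, Cd80, Pvr, Havcr2, Icosl, Cd276, Cd86, Nectin2 and Pdcd1lg2. There Cd80 and Pvr overlapped, and so did each neighbouring pair from Havcr2 down to Nectin2, all of which averaged between 1.53 and 2.20 FPKM. Nectin2 was thus second in SAHH-KO, against ninth in control.

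SAHH-KO replicate 1 exceeded both other libraries of its group by at least 1.2-fold, a size chosen after the values were seen, for 4 of the 9 tested genes, where 6.61% of all tested genes did so. These were Nectin2, Icosl, Cd276 and Cd274. Lgals9 and Cd80 were lowest in it. Without this library the calls of Nectin2, Icosl, Cd274, Lgals9, Cd80, Pvr, Cd86 and Havcr2 stood (limma adjusted p of at most 0.0352).

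The windows before the RefSeq start sites of Lgals9, Nectin2, Cd274 and Havcr2 are printed. They show the sequence before some of the genes that rose and before Havcr2, which fell. That of Icosl, which also rose, is not among them. The RefSeq promoter table (GRCm38.p6) matched 8 of the 10 genes, all but Cd86 and Pvr. Each window holds 250 bases before the start, or 228 for Lgals9, whose last 22 bases lie in an exon of the gene in GENCODE M21. They lie at chr11:78984947-78985174 (minus strand), chr7:19749574-19749823 (minus strand, before a start 910 bases inside the gene as the deposited table gives it), chr19:29367188-29367437 (plus strand) and chr11:46454681-46454930 (plus strand). Sequences run 5′ to 3′ on the strand of the gene, and capitals mark a motif match.
Lgals9: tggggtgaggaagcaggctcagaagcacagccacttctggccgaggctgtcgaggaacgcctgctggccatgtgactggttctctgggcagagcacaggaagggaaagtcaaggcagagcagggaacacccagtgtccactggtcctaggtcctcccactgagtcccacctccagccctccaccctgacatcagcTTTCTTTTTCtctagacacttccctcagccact
Nectin2: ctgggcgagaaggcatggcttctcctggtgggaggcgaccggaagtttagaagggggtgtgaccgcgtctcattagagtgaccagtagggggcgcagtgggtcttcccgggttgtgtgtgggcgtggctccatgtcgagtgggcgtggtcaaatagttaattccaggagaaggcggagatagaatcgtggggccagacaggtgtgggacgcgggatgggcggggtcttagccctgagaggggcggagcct
Cd274: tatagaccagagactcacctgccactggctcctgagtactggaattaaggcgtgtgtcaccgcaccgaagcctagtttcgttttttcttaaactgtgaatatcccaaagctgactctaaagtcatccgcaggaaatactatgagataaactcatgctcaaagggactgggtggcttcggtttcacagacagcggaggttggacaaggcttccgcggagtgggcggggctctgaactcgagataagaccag
Havcr2: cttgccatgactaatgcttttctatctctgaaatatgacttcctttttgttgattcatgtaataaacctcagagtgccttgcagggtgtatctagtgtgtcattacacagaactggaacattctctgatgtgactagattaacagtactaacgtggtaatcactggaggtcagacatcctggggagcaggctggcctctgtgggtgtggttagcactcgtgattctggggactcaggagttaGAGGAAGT

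The motifs searched on both strands were the interferon-stimulated response element (GAAA, any 2 bases, GAAA), the interferon-γ-activated site TTCNNNGAA, a κB element (GGGA, any 2 bases, TTCC), the core site GAGGAAGT of the myeloid factor PU.1 and the cyclic AMP response element TGACGTCA. They do not contain one another. Lgals9 held the interferon-stimulated response element, in capitals above and on the reverse strand, 55 to 46 bases before the start. A second match lay 16 to 25 bases after it. Of 32851 RefSeq promoters, 2.98% hold this motif in the 250 bases before the start. Havcr2 held the PU.1 core in the last 8 bases before its start, and 2.44% of promoters hold it anywhere in the 250 bases before theirs. Nectin2 held the cyclic AMP response element 40 to 47 bases after its start, beyond the window printed, and 1.79% of promoters hold it in the 300 bases of the table. The other 5 matched genes, Cd274 included, held none of these motifs in their 300 bases, where 8.30% of promoters hold the interferon-γ-activated site and 1.47% the κB element. For Cd276 all 250 bases before the RefSeq start lie in exons of the gene. The RefSeq start of Cd80 lies 3372 bases inside the gene as the deposited table gives it. A match is a description of the letters and not a binding site shown here.

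Other costimulatory and checkpoint genes of antigen-presenting cells, which include receptors, cytokines and an enzyme besides ligands, also moved both ways. Of 36 such genes listed, 18 passed the filter, 9 were called higher and 6 lower, with the same counts under TPM and assigned-read scaling. Of all tested genes 26.4% were called higher, 26.8% lower and 53.3% in either direction. The median log2 fold change was 0.31, beside -0.01 over all tested genes. Cd40, the receptor through which T cells license antigen-presenting cells, averaged 136 ± 11.6 FPKM in SAHH-KO and 18.2 ± 2.03 FPKM in control (limma adjusted p = 4.77e-07). Tnfrsf14, the ligand of BTLA, averaged 4.42 ± 0.564 FPKM in SAHH-KO and 0.343 ± 0.138 FPKM in control, and passed the filter only through SAHH-KO (limma adjusted p = 5.83e-06). Cd47, a signal against phagocytosis, rose 2.88-fold, and H2-T23, which encodes the ligand of the inhibitory receptor NKG2A, 2.64-fold. The 6 genes called lower, named after their values were seen, were Ly9, Cd200, Cd200r1, Hmgb1, Cd48 and Sirpa, of which Cd200 and Cd48 passed the filter only through control. Sirpa, the receptor for CD47, averaged 59.2 ± 4.78 FPKM in SAHH-KO and 86.9 ± 9.51 FPKM in control (limma adjusted p = 0.00222). Cd200, a ligand that restrains myeloid cells, averaged 0.166 ± 0.0426 FPKM in SAHH-KO and 1.61 ± 0.186 FPKM in control (limma adjusted p = 5.39e-05). Vsig4, Ido1, Tnfsf4 and Slamf1, likewise chosen, had 0 reads in all 6 libraries.

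Of 15 genes listed under interferon-γ signalling to Cd274, all of which were tested, 10 were called higher and 1 lower. Under TPM or assigned-read scaling the counts were 9 and 2. The list also holds genes of inhibitors such as Socs1, so a gene called higher need not be an activator of Cd274. Socs1, named after its values were seen, was itself called higher (limma adjusted p = 0.0253). Over all tested genes 26.4% were called higher and 26.8% lower. The median log2 fold change was 0.49, beside -0.01 over all tested genes. Stat2, a transcription factor activated by interferon receptors, rose 14.0-fold. Irf1, the factor known to drive Cd274 after interferon-γ, averaged 22.0 ± 7.35 FPKM in SAHH-KO and 1.67 ± 0.134 FPKM in control (limma adjusted p = 6.43e-06), and Irf9 rose 2.27-fold. Jak1, named after its values were seen, was the lower gene (28.7 ± 0.976 FPKM in SAHH-KO and 34.2 ± 2.64 FPKM in control, limma adjusted p = 0.0349). The receptor gene Ifngr2, likewise chosen, averaged 21.7 ± 0.159 FPKM in SAHH-KO and 23.3 ± 1.73 FPKM in control (limma adjusted p = 0.358).

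Among 20 other regulators of these ligands, 18 were tested, 9 were higher and 1 was lower, with 9 and 3 under TPM or assigned-read scaling, beside 26.4% higher and 26.8% lower over all tested genes. The median log2 fold change was 0.33, beside the same -0.01. Nlrc5, the transactivator of MHC class I genes, rose 4.93-fold, and the NF-κB subunit genes Nfkb2, Relb and Rel rose 3.21-fold, 2.55-fold and 2.47-fold (limma adjusted p of at most 7.88e-05). Cmtm6, which protects PD-L1 protein from lysosomal breakdown, averaged 27.1 ± 1.04 FPKM in SAHH-KO and 19.3 ± 0.724 FPKM in control (limma adjusted p = 0.00104). Adam10, a sheddase and the gene called lower, averaged 18.1 ± 0.342 FPKM in SAHH-KO and 25.7 ± 3.07 FPKM in control (limma adjusted p = 0.00336). Cmtm6 and Adam10 were named after their values were seen.

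**Figure D4:**
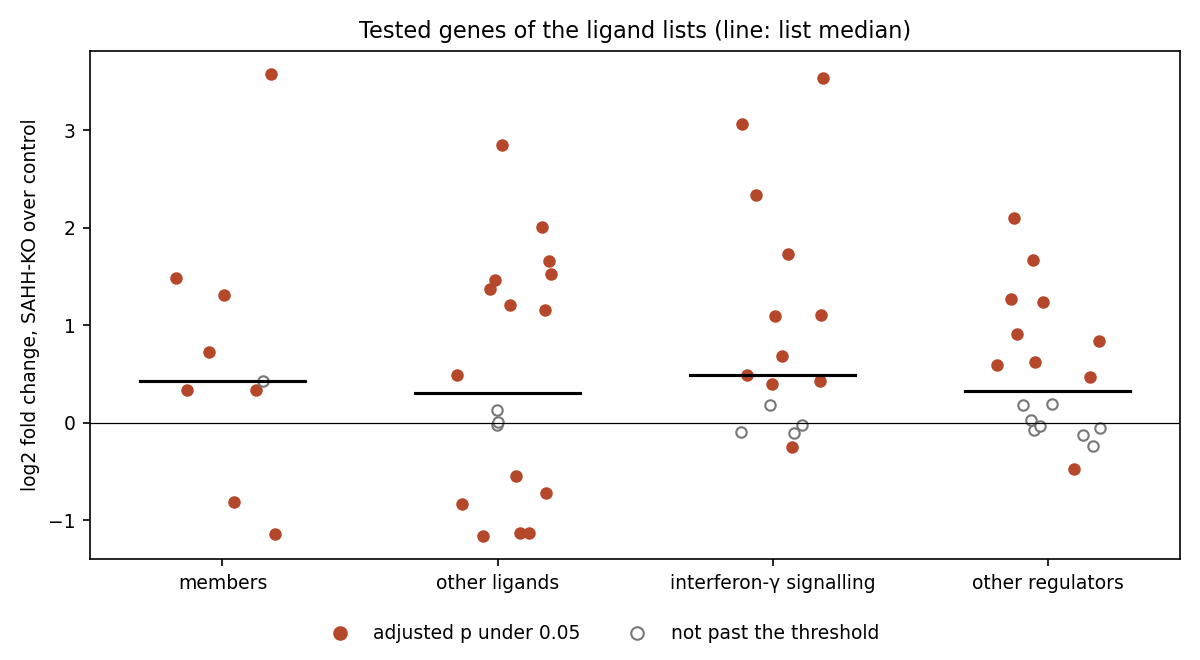
Log2 fold change, SAHH-KO over control, of FPKM + 1 for the tested genes of 4 lists, with the list median as a line. The lists are the 10 genes (members), the other ligands, interferon-γ signalling and the other regulators. The list marked other ligands also holds receptors. Filled points passed adjusted p under 0.05. The medians run from 0.31 for the other ligands to 0.49 for interferon-γ signalling.

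Lymphocyte receptors for these ligands, and further costimulation and checkpoint genes of lymphocytes, were at or near 0. Of 16 such genes, not all of which encode receptors of these ligands, none passed the filter. Cd28, Ctla4, Tigit, Cd226, Cd96, Btla, Tnfrsf18 and Cd40lg, which encodes the ligand of CD40, had 0 reads in all libraries. The other 8, named after their values were seen, had few reads and differed in both directions. Summed over libraries, Lag3 had 59 reads in SAHH-KO and 0 in control, Pdcd1, which encodes PD-1, 22 in SAHH-KO and 6 in control, and Tnfrsf4 16 in SAHH-KO and 11 in control. Tnfrsf9, the one with the most reads, had 24 in SAHH-KO and 47 in control, Cd160 had 9 in SAHH-KO and 13 in control, and Cd244a had 0 in SAHH-KO and 8 in control. Icos and Pvrig had at most 3 reads in all. The NK cell, B cell, mast cell and eosinophil, and fibroblast and mesothelial lists summed to at most 0.394 FPKM in any SAHH-KO library and at most 0.231 FPKM in any control library.

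Dendritic cells also carry these ligands. Of 12 listed dendritic cell markers, 5 (Ccr7, Cd209a, Siglech, H2-Aa and H2-Eb1) had 0 reads in all libraries. H2-Aa and H2-Eb1 are MHC class II genes, and Ciita, of the list of other regulators, also had 0. Named after their values were seen, Xcr1 had 39 reads in SAHH-KO and 47 in control, Zbtb46 27 and 13, and Itgae 9 and 14. H2-Ab1, Clec9a and Flt3 had at most 5 reads in all. The summed level of the 12 was 2.05 to 3.46 FPKM in SAHH-KO and 0.401 to 0.620 FPKM in control, and it was mostly Fscn1, an actin-bundling gene, at 2.26 ± 0.765 FPKM in SAHH-KO and 0.221 ± 0.0692 FPKM in control. Neutrophil markers summed to 0.503 to 0.820 FPKM in SAHH-KO and 4.76 to 5.66 FPKM in control. Of these S100a8 averaged 0.189 ± 0.251 FPKM in SAHH-KO and 4.63 ± 0.486 FPKM in control, while S100a9 and Ly6g had 0 reads. The part of these cell types in the ligand differences was not tested.

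For each tested gene the 2 coding genes with the most similar profile over the 6 libraries were found among 9055, by Euclidean distance of log2(FPKM + 1) centred on each gene's mean. Nectin2 was closest to Aldh1b1, an aldehyde dehydrogenase gene at 34.7 ± 7.56 FPKM in SAHH-KO and 1.79 ± 0.236 FPKM in control (distance 0.22), and next to Stat2 (0.50). Icosl was closest to Rbm47, which encodes an RNA-binding protein (0.12), and to Fscn1 (0.15). Lgals9 was closest to Itpr1, a calcium channel gene (0.04), and Triobp (0.12), and Cd274 to Dcxr and Csnk1e (0.11 and 0.12). Cd86 was closest to Dkc1 and Brca1 (0.07 and 0.08), and Havcr2 to Them6 and Golm1 (0.07 and 0.11). The scale compresses low values, so a gene with a near profile can differ in fold. Cd86 fell 7.86-fold, while Dkc1 averaged 19.3 ± 1.07 FPKM in SAHH-KO and 42.4 ± 3.13 FPKM in control. Icosl rose 3.85-fold and Fscn1 10.2-fold. Cd80 was closest to Ankib1 and Mtbp (0.14 and 0.15), Pvr to Cyth2 and Ikbkb (both 0.08), and Cd276 to Ttc7 and Emp2 (0.19 and 0.28).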

How the data were processed

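Bulk RNA-seq of 3 SAHH-KO and 3 control libraries was analysed. The authors deposited 1 table of FPKM values with gene coordinates and lengths. Per the submitters' processing notes, the builds were GRCm38 and mm10 and the tools STAR, featureCounts, FastQC and Trim Galore, without versions. The use of strand and the step from counts to FPKM are not given in the sources used here. FPKM times gene length fell on whole multiples of 1 read for 100% of values above 0 (within 0.01), which gave reads per gene and the authors' library sizes. Their mean ratio to the assigned reads was 0.950 in SAHH-KO and 1.06 in control. Floors of 3 reads cover counting error only, since reads carry no molecular identifiers.

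Genes were tested two-sided on log2(FPKM + 1) by limma 3.58.1 under R 4.3.3, using lmFit and trended eBayes with group as the only term. The code was tested on simulated data. All adjusted p-values come from limma over all tested genes. Folds in the text are ratios of mean FPKM unless given as log2. The table holds FPKM, so a count model was not the main test; limma-voom on the recovered reads was an alternative. No pair of libraries was identical, and the chi-square of reads per degree of freedom between replicates was 3.97 to 29.1. Exons of Cd274, Cd276 and Nectin2 share 14.1%, 11.4% and 3.86% of their bases with antisense genes in GENCODE M21, whose reads cannot be told apart without strand. The antisense genes of Cd276 and Nectin2, Gm10657 and Gm20512, read 0 FPKM in every library. That of Cd274, AC119228.1, has no value in the deposited data.

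The genes, lists and motifs were chosen with earlier results of these data known. Named are the 10 genes, Ahcy, the called genes of each list in order of p, at most 4, and the 2 nearest profiles per gene; others are said to have been chosen after their values were seen. Not every gene this rule gives is reported here. Alternatives covered pseudocounts 0.1 and 0.5, no filter and a mean of at least 2 FPKM, TPM and assigned-read scaling, no trend, voom, the replicate block and the omission of each library.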

Additional observations from a re-analysis of the deposited data

How the results depend on the processing

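Nectin2, Icosl, Lgals9, Cd274, Cd86 and Havcr2 kept their direction and their call under each alternative that could test them, with limma adjusted p of at most 0.00973. Cd276 passed under none of 15 (limma adjusted p from 0.0618 to 0.338). Calls of 6 genes higher became 4 under TPM scaling, assigned-read scaling and some omissions of a library, through Cd80 and Pvr. Across the omissions of 1 library the calls were 4 to 6 genes higher and 2 lower. A filter on a mean of at least 2 FPKM left 3 of the 10 genes untested, so 0 were called lower, and without a filter 0 were untested. The ratio of Cd274 to Cd80 differed by 0.17 to 0.55 (log2) and that of Cd86 to Cd80 by -3.38 to -3.08 across these omissions.

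Of all tested genes, 2736 were called higher and 2782 lower, 2006 and 3894 with TPM scaling, and 2033 and 3905 with assigned-read scaling, where the median of all genes shifted by -0.15 and -0.13 (log2). The replicate block gave 2729 higher and 2761 lower and changed no call of the 10 genes. Libraries with the same number had deviations from the group mean that correlated at 0.10, 0.10 and -0.01. With 3 libraries in each group, these values cannot show whether libraries of the same number were paired. Among the 39 tested named genes no direction reversed, and Ankib1, Mtbp, Cyth2 and Ikbkb lost their calls under some settings while Emp2 and Ttc7 gained theirs. Cd86, Havcr2 and Pdcd1lg2 rest on 351, 413 and 7 reads, which limits the precision of their folds.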
